A study of Mus musculus with 5 samples.

Results

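B-like cells of the NOD mouse thyroid were the 160 cells that the study's authors placed in cluster 14, out of 10275 CD45+ cells in all. NOD mice are an inbred strain prone to autoimmunity. Male and female animals, 4 to 6 weeks old at the start, were given antibodies intraperitoneally 2 times per week for 4 weeks. The ICI group (immune checkpoint inhibition, 16 mice, 10 mg/kg per dose) received anti-PD-1 clone RPM1-14 with anti-CTLA-4 clone 9D9, and the isotype group (10 mice) received control antibodies of clones 2A3 and MPC11. Thyroids were perfused, digested with collagenase and sorted for live CD45+ cells, and 4 ICI libraries and 1 isotype library were made from pooled mice by 10x Chromium 5′ sequencing. Mice per library are not stated in the labels, which also do not say whether libraries came from separate mice, so p-values measure only the spread between libraries.

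B cells carry a membrane immunoglobulin that signals through the Cd79a and Cd79b chains. They take up antigen through it, present peptides on MHC class II to CD4 T cells and can mature into antibody-secreting cells. In thyroid autoimmunity they are known as a source of autoantibodies and as antigen-presenting cells.

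The promoters below show 4 genes that are high in cluster 14 and belong to its defining functions, the receptor chain Cd79a, the inhibitory receptor Cd22 and the class II chains H2-Aa and H2-Eb1. Sequences are from RefSeq, build GRCm38.p6, and run 5′ to 3′ on the gene's strand from 250 bases before the start to 50 after it. Cd79a lies at chr7:24897247-24897546 (plus strand), Cd22 at chr7:30878979-30879278 (minus), H2-Aa at chr17:34287774-34288073 (minus) and H2-Eb1 at chr17:34305617-34305916 (plus). Capitals mark a match to GAGGAA on either strand in Cd79a (core of PU.1 and Spi-B sites), to the EBF1 palindrome in Cd22 (TCCC, any pair of bases, then GGGA) and to CTGATTGG in both class II genes (Y box).
Cd79a: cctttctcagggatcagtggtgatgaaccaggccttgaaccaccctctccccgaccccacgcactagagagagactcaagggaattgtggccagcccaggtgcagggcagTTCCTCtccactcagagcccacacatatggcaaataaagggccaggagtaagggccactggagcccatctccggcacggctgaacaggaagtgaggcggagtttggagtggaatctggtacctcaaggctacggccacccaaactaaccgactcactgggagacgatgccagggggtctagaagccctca
Cd22: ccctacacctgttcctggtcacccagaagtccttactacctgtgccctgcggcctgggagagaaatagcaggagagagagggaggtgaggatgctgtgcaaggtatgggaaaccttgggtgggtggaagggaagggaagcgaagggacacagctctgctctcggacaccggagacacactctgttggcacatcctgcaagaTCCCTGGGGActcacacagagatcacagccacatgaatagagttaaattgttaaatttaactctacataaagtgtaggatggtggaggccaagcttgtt
H2-Aa: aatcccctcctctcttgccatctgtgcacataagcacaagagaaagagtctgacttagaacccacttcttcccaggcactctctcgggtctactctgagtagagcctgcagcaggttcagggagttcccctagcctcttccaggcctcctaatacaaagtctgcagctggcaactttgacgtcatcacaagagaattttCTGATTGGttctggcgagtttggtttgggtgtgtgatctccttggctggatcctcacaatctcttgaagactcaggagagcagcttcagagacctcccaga
H2-Eb1: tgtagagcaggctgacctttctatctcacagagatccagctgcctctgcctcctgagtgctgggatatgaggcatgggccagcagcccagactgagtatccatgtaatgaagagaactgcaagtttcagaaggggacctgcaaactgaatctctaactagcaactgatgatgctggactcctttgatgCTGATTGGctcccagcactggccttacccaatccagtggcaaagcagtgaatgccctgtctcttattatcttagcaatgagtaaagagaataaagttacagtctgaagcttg
Over the 32851 promoter windows of the table, GAGGAA was present in 28.3%, the EBF1 palindrome in 0.904% and CTGATTGG in 4.10%, both strands searched and overlaps counted once. Of 18 B cell and class II genes looked up, 12 had a window, and 3 of the 6 class II genes among them held the Y box. Of the 6 B cell genes among them, 1 held the EBF1 palindrome, and GAGGAA was found only in Cd79a and Ebf1. The octamer ATGCAAAT, present in 1.74% of all windows, was in 0 of these 6. These matches describe letters only and say nothing of binding.

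The label fitted the markers. Cd79a was seen in 95.6% of cluster 14 cells against 0.633% of other cells, and Ms4a1, which encodes CD20, in 86.2% against 0.277%. Detection was lower in ICI 1, at 88.5% of cluster 14 cells for Cd79a, 68.9% for Ms4a1 and 57.4% for Cd79b. In the other libraries it was 100% for Cd79a, 93.8% to 100% for Ms4a1 and 75% to 100% for Cd79b. Cd79a stood at 2989 CPM (UMIs summed over the cells and scaled to the same total in every sum) in cluster 14 and at 138 CPM in the next cluster, cluster 15. Ighm, the IgM heavy chain, was a weak marker. It was seen in 71.9% of cluster 14 cells and 40.0% of other cells, and its level of 581 CPM in cluster 14 was below the 758 CPM of cluster 15. In T-like clusters 0 and 1, which should lack it, 24.1% to 38.9% of cells per library held an Ighm UMI, so a single Ighm UMI did not mark a B cell here.

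**Figure D1:**
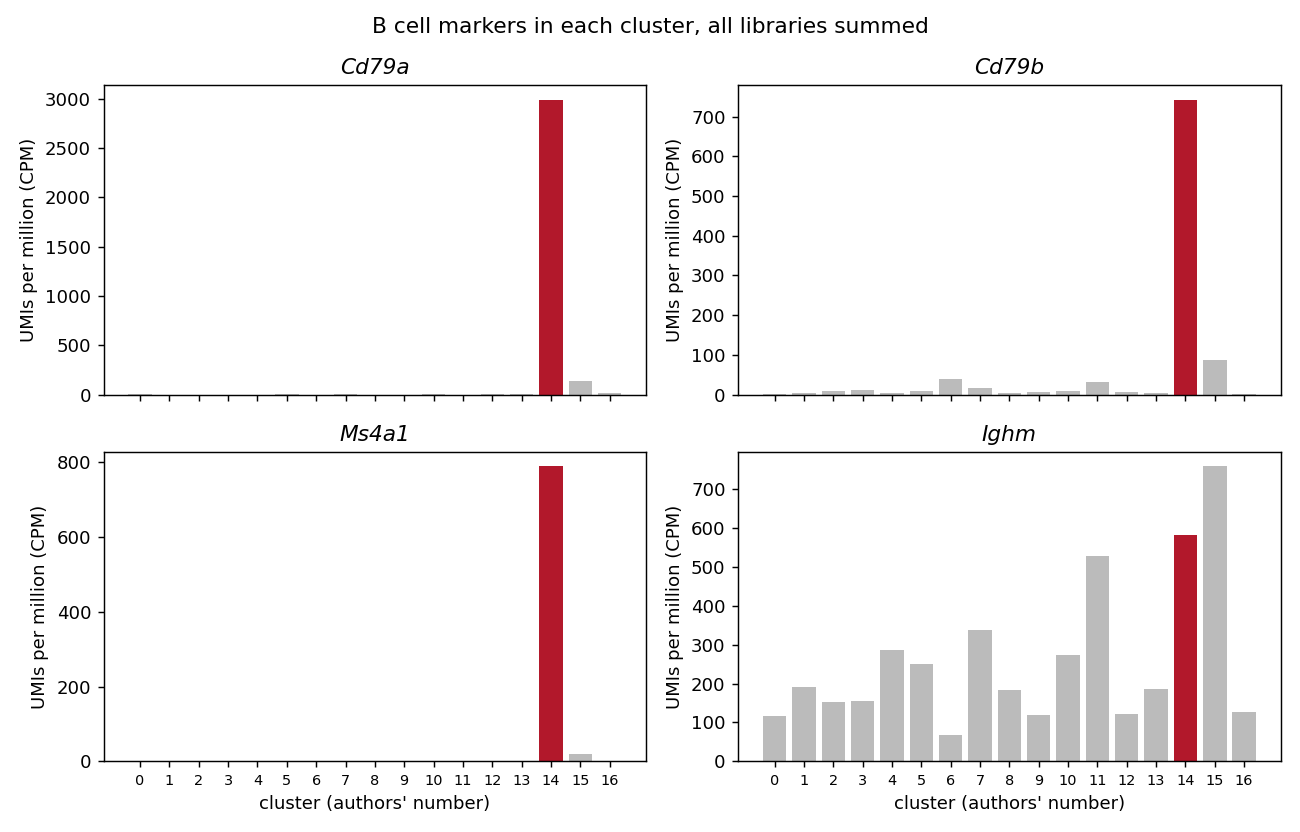
Level of the 4 markers in each cluster, with all libraries summed (y axis, CPM; x axis, the authors' cluster number; cluster 14 in red). Cd79a, Cd79b and Ms4a1 stand out in cluster 14, while Ighm stands at 581 CPM in cluster 14 and 758 CPM in cluster 15.

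The cells were unevenly spread and unevenly deep. Over all cell types the ICI libraries ranged from 1163 to 5018 cells and from 3858251 to 32296759 UMIs, and isotype had 1352 cells and 8130081 UMIs. ICI 1 to 4 held 61, 5, 5 and 73 cluster 14 cells and isotype held 16. A median cell of cluster 14 held 1170, 2985, 3495 and 5060 UMIs in the ICI libraries 1 to 4, and 3338 in the isotype library. ICI 1 stood apart, with a median of 6.50% mitochondrial UMIs in these cells against 1.93% to 2.26% in the other ICI libraries and 1.59% in isotype. Xist, a transcript of female cells, had 2563, 614, 664 and 4 UMIs over all cells of ICI 1 to 4 and 0 in isotype, and its 122 UMIs in cluster 14 lay in ICI 1. The libraries thus differ in their share of female cells, and the part of sex in the treatment comparison was not tested. The ICI 4 barcodes carry 2 suffixes, with 35 and 38 cluster 14 cells. ICI 2 and ICI 3 shared 140 barcodes over all cells, but 1 cluster 14 cell, in isotype, had a barcode found in another library. How the authors treated doublets is not given in the sources used here, and no doublet caller was run.

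Cluster 14 made up 4.01%, 0.410%, 0.430% and 1.45% of cells in ICI 1 to 4 and 1.18% in isotype (95% exact Clopper-Pearson interval 0.678% to 1.91% in isotype, counting error only). The groups overlapped, with 2 of 4 ICI libraries above isotype. The ICI mean was 1.58% ± 1.69 (SD, n = 4), 0.39 percentage points above the single isotype library, which was within the spread between ICI libraries (exact two-sided permutation p = 0.8, smallest possible 0.2). Without ICI 1 the difference was -0.418 points.

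**Figure D2:**
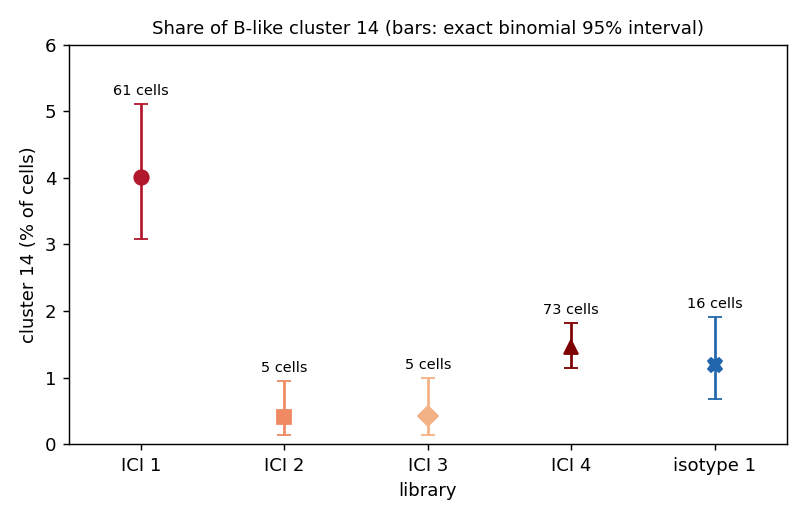
Share of cluster 14 among the CD45+ cells of each library (y axis, percent; bars, exact binomial 95% intervals), with the 4 ICI libraries left and isotype right. ICI 1 at 4.01% lies above isotype at 1.18%, and ICI 2 and ICI 3 lie below it at 0.410% and 0.430%.

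The genes of largest fold over other cells were those of mature B cells. They describe the clustering and carry no test. Cd79a (181-fold, pseudocount of 10 CPM) and Ms4a1 (103-fold) led, and the 20 of largest fold held the lineage factor Ebf1 (72.9-fold), the signalling adaptor Bank1 (60.5-fold) and Cd79b (54.3-fold). Fcer2a, the low-affinity IgE receptor CD23 of follicular B cells, was 45.3-fold higher, and the IgM Fc receptor Fcmr was 41.9-fold higher. Also among the 20 were Fcrla, the light chain genes Iglc2 and Iglc3, Scd1, the inhibitory receptors Cd22 and Siglecg, the BAFF receptor Tnfrsf13c, the complement receptor Cr2, the complement regulator Cd55, the factor Spib, the signalling gene Bcar3 and the class II chaperone subunit H2-DMb2. Over the 17 clusters, Ms4a1 (Spearman 0.84), Mef2c (0.83), Rogdi (0.82), Bcar3 (0.82) and Snx8 (0.81) ranked most like Cd79a.

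Genes of other B cell states varied. Over 1.5-fold above other cells were 3 of 10 plasma cell genes, 3 of 9 marginal zone genes, 2 of 7 genes of atypical B cells, 0 of 7 germinal centre genes and 0 of 9 cytokines. On the list of B-1 cells, another B cell state, 3 of 8 were. Mzb1 is on both the plasma cell and marginal zone lists, and the plasma cell gene Derl3 had 3 UMIs in all. The share of all genes over 1.5-fold was not counted, so these counts are description only. Mzb1, a secretory pathway chaperone of marginal zone and plasma cells, was seen in 66.9% of the cells (9.02-fold), the factor Irf4 in 26.3% (3.04-fold), the complement receptor Cr2 in 33.1% (19.6-fold), the receptor Notch2 in 29.4% (1.72-fold) and the factor Zeb2 in 20% (1.19-fold). Prdm1 and Tnfrsf17 of plasma cells, Itgax of atypical B cells, Gcsam and Nuggc of germinal centres, and the cytokines Il10, Il6 and Csf2 had no UMI in cluster 14. Jchain, which joins secreted IgM and IgA, was seen in 4.38% of its cells. Ighd, the IgD heavy chain of naive B cells, was present at 187, 511, 249 and 180 CPM in ICI 1 to 4 and 117 CPM in isotype, 23.3-fold above other cells.

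Class II genes were abundant in every library. Cd74, the invariant chain, stood at 20359, 35685, 34307 and 23396 CPM in ICI 1 to 4 and 23475 CPM in isotype. H2-Aa stood at 6683, 13661, 10398 and 9554 CPM in ICI 1 to 4 and 8878 CPM in isotype. For both genes the ICI libraries lay on either side of isotype. All 12 class II genes were tested, 5 had a positive fold and none passed, where 53.6% of all 3223 genes tested had a positive fold. Their median log2 fold change was -0.09, against 0.08 over all genes tested. By cluster, Cd74 stood at 23370 CPM in cluster 14, below macrophage-like cluster 7 (34997 CPM) and dendritic-like cluster 16 (29481 CPM). H2-Aa and H2-Eb1 stood at 9059 and 5341 CPM in cluster 14, below 16146 and 10187 CPM in cluster 16. H2-DMb2 was highest in cluster 14 (1558 CPM against 551 in cluster 7).

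The treatment comparison asked which genes differed in B-like cells after checkpoint inhibition. ICI 2 and ICI 3, with 5 cells each, were too small to enter, so the fit set ICI 1 and ICI 4 against isotype. No gene passed an adjusted p of 0.05 in edgeR's quasi-likelihood test (0 higher and 0 lower of 3223, 0% of genes tested in each direction), 78 had an unadjusted p under 0.05 (68 higher, 2.11%, and 10 lower, 0.31%), and DESeq2 also called 0, with 23 under that unadjusted p. In counts simulated for this comparison, with 3223 genes, a 4-fold change was called by edgeR in 11% of cases and a 16-fold change in 66%. Most 4-fold differences would thus not be detected at this depth. The changed genes were drawn only from those of higher level, so these rates do not cover the lowest-expressed genes tested.

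**Figure D3:**
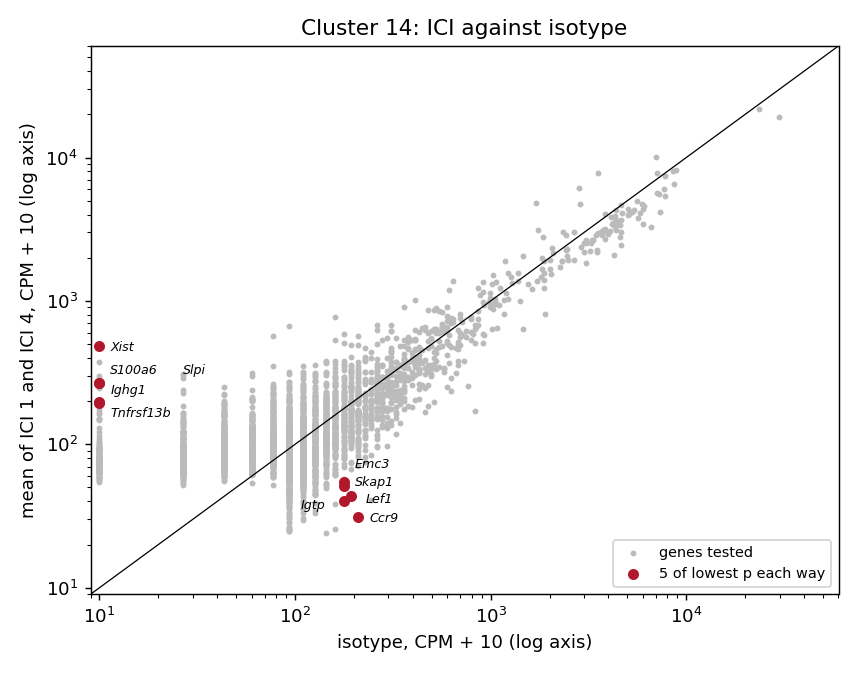
Mean CPM + 10 of ICI 1 and ICI 4 (y axis, log) against isotype CPM + 10 (x axis, log) for each of the 3223 genes tested in cluster 14, with the diagonal marking equal levels. The 5 ranked genes of lowest p in each direction are red, and none passed the adjusted threshold. Receptor segments, T cell receptor constant genes, mitochondrial, ribosomal and unnamed genes were left out of the ranking.

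Receptor segments were left out of the ranking by p. The 5 ranked genes of lowest p on the higher side were all at 0 UMIs in isotype, so their fitted folds are no bound. Tnfrsf13b, which encodes the BAFF and APRIL receptor TACI, stood at 304, 255, 249 and 64.5 CPM in ICI 1 to 4 and had 0 UMIs in isotype, at least 3.67-fold higher in the mean of ICI 1 and ICI 4 than the isotype floor of 3 UMIs (50.2 CPM; edgeR adjusted p = 0.302). Slpi, a secreted protease inhibitor, stood at 421, 192, 374 and 91.2 CPM in ICI 1 to 4 against 0 UMIs in isotype (at least 5.10-fold, adjusted p = 0.186). For Slpi, 1 cell held 38.9% of the ICI 1 UMIs and 1 cell held 43.9% of those of ICI 4. At 64.5 CPM of Tnfrsf13b and 91.2 CPM of Slpi, ICI 4 lay nearer the isotype floor than ICI 1 did. Both genes were picked by low p and have 0 isotype UMIs, so any ICI library with a UMI must lie above isotype. ICI 2 and ICI 3 held 4 and 4 UMIs of Tnfrsf13b and 3 and 6 of Slpi.
S100a6, a calcium-binding protein, had 50 and 58 UMIs in ICI 1 and ICI 4 and none in ICI 2, ICI 3 or isotype, and 86.0% of the ICI 1 UMIs came from 1 cell. Xist had the lowest p (adjusted p = 0.0732), with UMIs in ICI 1 only. Ighg1 is described with the immunoglobulins.

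On the lower side, Ccr9, a gut and thymus homing receptor, was counted 2, 0, 0 and 12 times in the cells of ICI 1 to 4, against 12 UMIs in those of isotype, 83.3% of them from 1 cell (log2 fold change -3.14 ± 1.10 SE, adjusted p = 0.645). Lef1, a T cell transcription factor, had a log2 fold change of -2.19 ± 0.92 (adjusted p = 0.999). Igtp, an interferon-induced GTPase, the membrane complex subunit Emc3 and the T cell adaptor Skap1 followed, with log2 fold changes of -2.52, -1.97 and -1.97. The isotype UMIs of these genes numbered 10 to 12 each, and 1 cell held 80% of those of Igtp and 45.5% of those of Lef1. The T cell receptor constant gene Trbc1, left out of the ranking with the receptor segments, had a lower p than these 5 (log2 fold change -2.74 ± 0.85, adjusted p = 0.38), and all 14 of its isotype UMIs came from 1 cell.

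Immediate early and activation genes mostly had negative folds, larger in 1 library. Junb, an AP-1 subunit, stood at 203, 1404, 1494 and 1390 CPM in ICI 1 to 4 and 1889 CPM in isotype. Nr4a1, induced by antigen receptor signals, stood at 77.9, 2553, 623 and 661 CPM in ICI 1 to 4 and 719 CPM in isotype. ICI 1 was lowest for both, and ICI 2 exceeded isotype for Nr4a1. Of 16 tested genes of the list 2 had a positive fold, where 53.6% of all genes tested did. In both ICI 1 and ICI 4, 12 lay below isotype, where 32.3% of all genes tested did. None passed. The median log2 ratio to isotype was -2.10 in ICI 1 and -0.19 in ICI 4, and the other cells of ICI 1 were also lowest (2575 CPM summed over the list, against 4543 to 5278 in the other ICI libraries and 7784 in isotype). The part of library quality in this was not tested.

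Homing and survival receptors varied between libraries. Ccr7, which guides cells to lymphoid tissue, stood at 280, 4596, 685 and 974 CPM in ICI 1 to 4 and 1003 CPM in isotype. Ccr6 stood at 413, 319, 125 and 267 CPM in ICI 1 to 4 and 66.9 CPM in isotype, and Itga4, the integrin alpha 4 chain, at 1075, 638, 187 and 247 CPM against 83.6 CPM. For Ccr6 and Itga4 all 4 ICI libraries lay above isotype, whose UMIs numbered 4 and 5, and neither passed (edgeR adjusted p = 0.999 and 0.796). The share of all genes with this order was not counted. In the other cells Ccr6 stood at 40.0, 37.2, 39.0 and 8.82 CPM in ICI 1 to 4 and 5.95 CPM in isotype. Itga4 stood there at 509, 368, 342 and 118 CPM against 79.6 CPM, so the order was the same outside cluster 14.
Class I presentation genes had positive folds in 13 of 14, with 9 above isotype in both ICI libraries (39% of all genes tested were), and none passed. Their median log2 fold change was 0.58. Summed over the list, the levels were 8458, 7214, 5728 and 7490 CPM in ICI 1 to 4 and 5802 CPM in isotype, so ICI 3 lay below isotype. The other cells of the ICI libraries held 8833, 10872, 10735 and 5747 CPM and those of isotype 4107 CPM, and the part of differences shared by all cells of a library was not tested. Interferon response genes had positive folds in 10 of 17, with a median of 0.24. The B cell receptor list had 14 of 21 positive, with a median of 0.26. Of all genes tested, 53.6% had a positive fold.

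**Figure D4:**
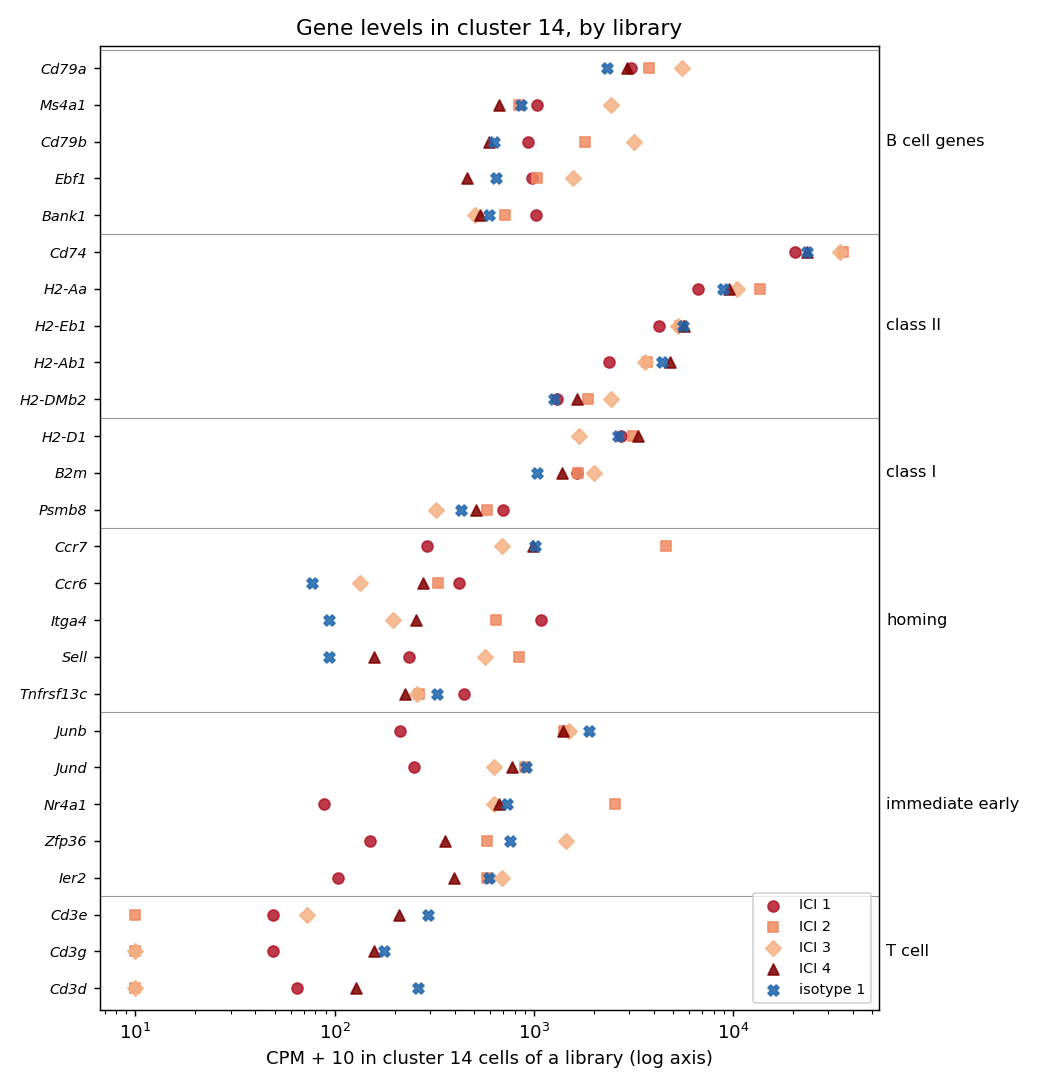
Levels of named genes in cluster 14 (x axis, CPM + 10, log axis), one symbol per library. ICI 1 is lowest for Junb and Nr4a1, at 203 and 77.9 CPM, and isotype is lowest for Ccr6 and Itga4, at 66.9 and 83.6 CPM.

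Transcripts of T cells lay in some of these cells. At least 2 UMIs of 10 general T cell genes were found in 10 of 61, 0 of 5, 1 of 5 and 21 of 73 cells of ICI 1 to 4 and in 4 of 16 isotype cells. The ICI mean was 16.3% ± 12.0 (SD, n = 4) and isotype 25.0% (exact permutation p = 0.6). Thinned to 1000 UMIs, the shares were 9.76%, 0%, 0% and 16.4% in ICI 1 to 4 and 26.7% in isotype. In macrophage-like cluster 7, which should lack these genes, 4.32% to 53.3% of cells in the ICI libraries and 72.9% in isotype held as many (median depth 3403 to 8726 UMIs in ICI and 9932 in isotype). Thinned to 1000 UMIs, the cluster 7 shares were 11.3%, 1.27%, 0% and 42.2% in ICI 1 to 4 and 61.2% in isotype, so the cluster 14 share did not exceed them in any library. The UMIs were unevenly spread, and 1 cell held 37 of the 405 in ICI 4 and 1 cell held 41 of the 91 in isotype. The 21 ICI 4 cells with at least 2 held 391 of the 405, and the 4 isotype cells held 90 of the 91. In ICI 1 the 10 such cells held 27 of 44. All 10 genes had UMIs, and their summed level was 63.8 to 901 CPM in the ICI libraries and 1522 CPM in isotype. None of the 9 tested had a positive fold, where 53.6% of all genes tested did. In both ICI 1 and ICI 4, 8 lay below isotype, where 32.3% of all genes tested did. Lef1 and Skap1 above are T cell genes, and the part of T cell transcripts in their values was not tested. Of 12 myeloid genes, Csf1r, Fcgr1, S100a8 and S100a9 were at 0, and the list summed to 62.3 to 958 CPM in the ICI libraries and 217 CPM in isotype. In ICI 4 most of it was Apoe (449 of 561 CPM). At least 2 myeloid UMIs were found in 14.9% ± 14.6 of cells in the ICI libraries (SD, n = 4) and 18.8% in isotype, a difference of -3.89 points (exact permutation p = 1).

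Switched heavy chains were found in ICI 1 and ICI 4. Among cells with a heavy chain UMI, one of Ighg1, Ighg2b, Ighg2c, Ighg3, Igha or Ighe led in 12 of 48, 0 of 4, 0 of 5 and 7 of 72 cells of ICI 1 to 4 and in 0 of 12 isotype cells, which allows up to 25% there (75% in ICI 2 and 60% in ICI 3). After thinning each cell to 1000 UMIs, which left out 20 cells of ICI 1 and 1 of isotype, the switched share was 24.1%, 0%, 0% and 5.56% in ICI 1 to 4 and 0% in isotype. Without thinning, the ICI mean was 8.68% ± 11.8 (SD, n = 4) against 0% in isotype (exact permutation p = 0.8, higher in 2 of 4). Ighg1 had 39 and 33 UMIs in ICI 1 and ICI 4 and 0 in ICI 2, ICI 3 and isotype (edgeR adjusted p = 0.302). In T-like clusters 0 and 1, 0% to 0.849% of cells per library held a switched UMI.

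Light chain use depended on which genes were counted. By constant genes, lambda led in 43 of 49, 3 of 4, 3 of 5 and 30 of 69 cells of ICI 1 to 4 and in 4 of 15 isotype cells, above isotype in 4 of 4 libraries (mean difference 39.9 points, exact permutation p = 0.2, the smallest possible). Thinned to 1000 UMIs, lambda led in 90.6%, 75%, 25% and 41.3% of such cells in ICI 1 to 4 and 22.2% in isotype (exact permutation p = 0.4). With V segment UMIs added, a count chosen after seeing the data, the lambda share was 42.3%, 75.0%, 60.0% and 14.3% in ICI 1 to 4 and 12.5% in isotype. Of the lambda-led cells, 23 of 43 in ICI 1, 23 of 30 in ICI 4 and 2 of 4 in isotype held at least 2 kappa V UMIs, and 2, 2 and 0 held 2 lambda V UMIs. The table lists 38 kappa and 3 lambda V segments. ICI 2 and ICI 3 had 0 kappa V UMIs over all their cells, so V segments say nothing there. In the ICI 4 suffix sets lambda led in 20 of 31 and 10 of 38 cells.
No V segment combination recurred among the 21 cells with at least 2 UMIs of a leading heavy and a leading kappa segment. Each of them had its own pair. Only 28 heavy V segments were counted, and cluster 14 cells of ICI 2 and ICI 3 had 0 heavy V UMIs. So few cells cannot show whether clones expanded.

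**Figure D5:**
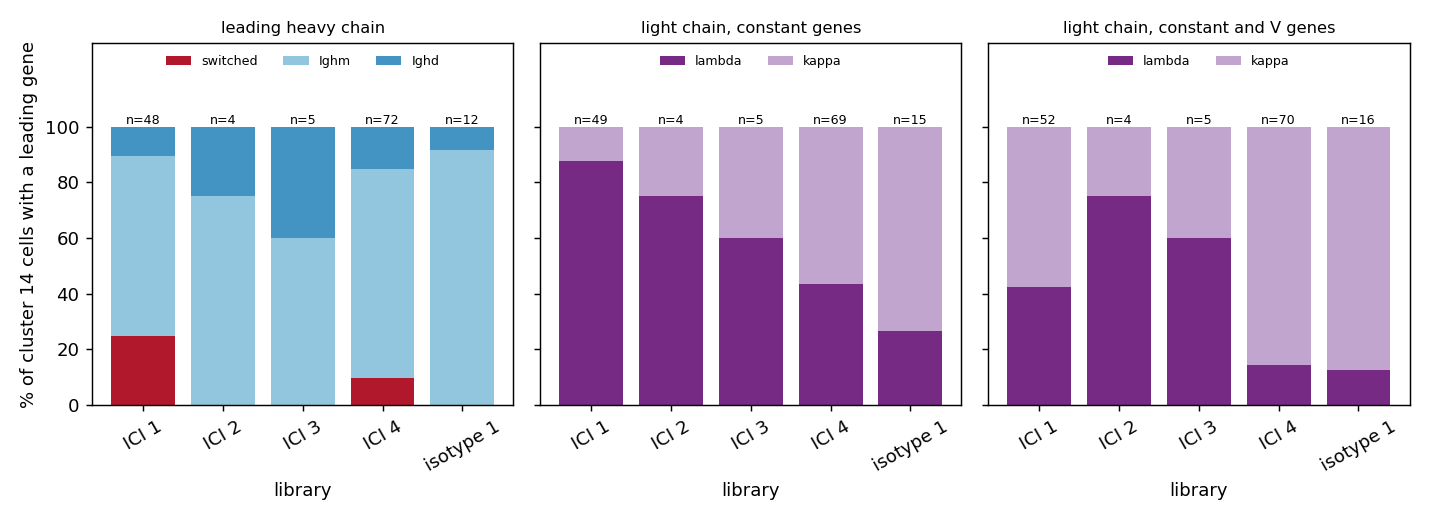
Leading immunoglobulin genes in cluster 14 cells of each library (y axis, percent of cells with a leading gene; n above each bar), for the heavy chain, the light chain by constant genes, and the light chain with V segments added. Switched heavy chains appear in ICI 1 and ICI 4 only, and the lambda share of ICI 4 is 43.5% by constant genes and 14.3% with V segments.

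A last fit asked whether the treatment difference in cluster 14 differed from that in all other cells of the same libraries. These other cells differed in make-up between libraries. Macrophage-like cluster 7 held 104 of all 1523 cells in ICI 1, 45 of 5018 in ICI 4 and 129 of 1352 in isotype. The part of cell make-up in the calls was not tested. edgeR called 14 genes higher (0.117% of 12015) and 5 lower (0.0416%), and the median over all genes was 0.60 on the log2 scale. Of the 19, 8 were receptor V segments and 9 had no UMI in isotype cluster 14 cells. Fcgr2b, the inhibitory IgG receptor, stood at 148 and 182 CPM in ICI 1 and ICI 4 cluster 14 cells and 134 CPM in isotype ones, but at 19.3 and 1.92 CPM in the other cells of ICI 1 and ICI 4 and 39.4 CPM in those of isotype (log2 difference 3.27 ± 0.72 SE, adjusted p = 0.00545). Its cluster 14 levels thus lay between 134 and 182 CPM, and the other cells of both ICI libraries lay below those of isotype. Pld4, an endolysosomal nuclease, stood at 335 and 125 CPM in ICI 1 and ICI 4 cluster 14 cells and 16.7 CPM in isotype ones (log2 difference 4.40 ± 1.05, adjusted p = 0.0206). In the other cells Pld4 stood at 99.5, 18.6 and 68.9 CPM in ICI 1, ICI 4 and isotype. Tbc1d4, a regulator of glucose transporter traffic, was lower (log2 difference -5.73, adjusted p = 0.00163), on 0, 2 and 6 UMIs in ICI 1, ICI 4 and isotype cluster 14 cells. Without cells holding 2 T cell UMIs, 2 genes were called. That fit used its own sums for cluster 14 and for the other cells, and the part of each in the lower count was not tested.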

How the data were processed

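The authors deposited whole-number UMI counts per gene and cell and a cell table with clusters, mitochondrial percent and cell cycle scores. Cell Ranger, Seurat and build mm10 are named in the submitters' processing notes, and other steps are not given in the sources used here. The deposited percent values describe cell quality, and the deposited score values were not used. Members and gene lists were chosen with earlier results of these data known. Counts of cluster 14 cells were summed per library, and libraries with under 10 cells stayed out of gene tests. edgeR 4.0.16 (TMM, filterByExpr with a minimum count of 10, quasi-likelihood, Benjamini-Hochberg adjustment) gave the main test, with 1 residual degree of freedom and isotype assumed to vary as ICI does. DESeq2 1.42.0 was an alternative. Summed library sizes after the filter were 107493 and 383589 UMIs in ICI 1 and ICI 4 and 52371 in isotype. Shares of cells went through an exact permutation test over libraries, two-sided, and intervals and floors cover counting error only, at a 95% level. Thinning to 1000 UMIs left out 21 of 160 cells. The tests were also run on counts simulated from the means, library sizes and dispersion of the real data, after the fit to the real counts. Named genes were the markers, the 20 of largest fold over other cells, the 10 of largest fold past the threshold in each direction (or the 5 of lowest p), members of each list with most UMIs, and the 5 most like Cd79a. Receptor segments, T cell receptor constant genes, mitochondrial, ribosomal and unnamed genes were left out of the rankings. Which list members have their values printed was chosen after these were seen, and so was the set of single genes refitted under the alternatives (genes named by fold or p, and the member of each list with most UMIs). One gene of the rankings is not reported here.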

Additional observations from a re-analysis of the deposited data

Results flagged for a closer look

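The median mitochondrial share of cluster 14 cells in ICI 1, 6.50%, lay far from the other 3 ICI libraries. Of 7 measures looked at over the ICI libraries this was 1 exceedance. Chance gives about 1 in 20 for each measure, so 1 among 7 can arise by chance. The other cells of ICI 1 had a median of 2.74%, against 1.13% to 1.71% in those of the other ICI libraries.

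The treatment difference differed between cluster 14 and all other cells for 11 genes that are not receptor segments. The make-up of the other cells differs between libraries, and its part was not tested. Those with UMIs in isotype cluster 14 cells had log2 differences of 3.27 for Fcgr2b, 4.40 for Pld4, 4.63 for Iglc1 and -5.73 for Tbc1d4. The others had no such UMI, so their fitted values are no bound: 17.5 for Ighg2b, 15.2 for Tg (thyroglobulin), 14.5 for Mt1, 14.4 for S100a6, 14.2 for Lyz2, 14.1 for Ccl4 and 14.0 for Zeb2.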

How the results depend on the processing

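The count of genes called in cluster 14 was 1 without the filter (Trbv1), 2 with ICI 1 to 3 summed and 2 without cells under 1000 UMIs (Xist and Igkv6-20 each time), and 0 in the other alternatives run. The count of genes whose treatment difference differed from other cells, 19, was 10 without receptor, ribosomal and mitochondrial genes, 2 without cells holding 2 T cell UMIs and 8 with all 5 libraries. Leaving out ICI 1 or ICI 4 leaves no residual degree of freedom, so those fits give values with no test. The share difference ranged from -0.418 to 0.780 points with 1 ICI library left out, and was -0.194 without clusters 2, 5 and 11 in the denominator. The share of cells with T cell UMIs, -8.71 points, turned to 6.80 at 1 UMI. The myeloid one, -3.89 points, ranged from -9.90 to 1.06 points with 1 ICI library left out, and was 0.502 at 1 UMI, 0.169 at 3 UMIs and 10.1 after thinning. Fitted log2 fold changes turned sign when ICI 1 or ICI 4 was left out, with ranges of -0.074 to 0.77 for Mef2c, -0.46 to 0.0049 for Cd74, -0.20 to 0.39 for H2-DMb2, -0.22 to 0.33 for H2-D1, -0.068 to 0.12 for Mzb1, -1.004 to 1.28 for Ly6a, -0.22 to 0.019 for Tubb5 and -1.72 to 1.06 for Apoe. They turned with all 5 libraries for Cd74 (0.0054), H2-D1 (-0.14), Ccr7 (0.30) and Ly6a (-0.21), and without each gene's highest cell for H2-DMb2 (-0.056), Igkc (-0.12), Mzb1 (-0.28) and Tubb5 (0.33). Tubb5 also turned without the filter (0.035), without cells holding T cell UMIs (0.92) and without cells under 1000 UMIs (0.062). Iglc1 turned in the comparison with other cells without cells holding T cell UMIs (-4.22). The causes were not tested. No paired analysis was possible because replicate numbers follow accession order and there is 1 isotype library. The comparison has 1 isotype library of 16 cells and 1 residual degree of freedom. All 5 libraries, the depth limit on cells and V segments in light chain calls were chosen after seeing the data.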

Other observations

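Cells with at least 20 Jchain and at least 20 light chain UMIs, a threshold chosen after seeing the data, numbered 4, 0, 0 and 3 in ICI 1 to 4 and 6 in isotype. None lay in cluster 14, and 4 in ICI 1, 2 in ICI 4 and 5 in isotype lay in cluster 15. They held 99.6% of the Jchain UMIs of ICI 1, 96.6% of those of ICI 4 and 99.6% of those of isotype.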
